A study of Mus musculus with 16 samples.

Results

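The set held 34 genes known from the supporting cells of the organ of Corti and from the Notch pathway, and they were followed across cochlear hair cells (HCs) of old and adult mice. The members were chosen by gene name, with earlier results of these data known, and all 34 were found among the 49585 genes of the deposited expression table. The table covered 16 RNA-seq libraries in 4 labelled groups of 4, each library made from about 1000 HCs that were picked by hand, on their shape, from cochleae of CBA mice (CBA/J in the study's methods) of both sexes, with the cells of several mice pooled in a sample. The 4 groups were 26m OHC (outer HCs, 26 months), 9m OHC (outer HCs, 9 months), 26m IHC (inner HCs, 26 months) and 9m IHC (inner HCs, 9 months). No mutation or treatment was named for any group, so that age and cell type were the labelled differences. Values are RPKM, reads scaled by the length of a gene and by the mapped reads of a library. A gene above 0.1 RPKM was taken as above background.

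The inner ear places its HCs among several kinds of supporting cells, among them Deiters, pillar, Hensen and inner phalangeal cells. During development, ligands such as Jagged and Delta on one cell bind Notch receptors on its neighbour, the receptor is cut and its inner part enters the nucleus, where it joins RBPJ and switches on *Hes* and *Hey* genes. These keep the neighbour from becoming an HC, and SOX, BMP, FGF and R-spondin signals act beside this switch. In a pool of picked cells, a change in the number of attached supporting cells and a change in RNA per cell cannot be told apart.

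The HC labels did not match their markers. *Slc26a5*, which encodes prestin, the motor protein of OHCs, measured 1.79 and 1.9 RPKM in 26m OHC, 0.171 and 0.173 in 9m OHC, 819 and 813 in 26m IHC and 1.03 and 1.11 in 9m IHC. *Ocm*, the calcium buffer oncomodulin of OHCs, measured 1147 and 1155 RPKM in 26m OHC, 98.2 and 95.7 in 9m OHC, 12818 and 13017 in 26m IHC and 31.7 and 34.2 in 9m IHC. *Otof*, the otoferlin gene needed for release at the IHC synapse, measured 78.4 and 75.1 RPKM in 26m OHC, 140.4 and 136 in 9m OHC, 23.7 and 23.3 in 26m IHC and 357 and 342 in 9m IHC. *Tbx2*, a factor that holds the IHC fate, measured 3.54 and 3.58 RPKM in 26m OHC, 5.3 and 5.72 in 9m OHC, 0.968 and 0.874 in 26m IHC and 107 and 105 in 9m IHC. Both OHC markers were thus highest in the libraries labelled 26m IHC, and both IHC markers were lowest there. In the libraries labelled 9m OHC the prestin gene was near background. All groups below are named by label only, and every direction drawn between them rests on those labels. If the labels 26m IHC and 9m OHC stood for one another, the comparison of 9m OHC with 9m IHC would be the one between ages in IHCs, that of 26m OHC with 26m IHC the one between ages in OHCs, and both labelled age comparisons would be comparisons of cell types. All 4 are therefore given, with the comparison of 26m OHC with 9m IHC, which uses neither of those 2 labels and was added after the data had been seen. Its groups differ in both age and cell type, so it cannot tell an age difference from a cell type difference.

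Mapped reads per library came to between 19666190 and 31243721. Within each group, libraries 1 and 2, and likewise libraries 3 and 4, differed by less than or about the sampling noise (mean chi-square per gene 0.98 to 1.08 in these 8 pairs, against 2.70 to 3.44 in the other 16 pairs). The 2 libraries of a pair were averaged and counted as 1 sample, so n = 2 per group. The 2 values given per group are these averaged replicates. Tests were made with limma on log2(RPKM + 0.1), which understates the change of genes near 0.1 RPKM, and p-values were adjusted over all genes tested by the Benjamini-Hochberg method. A gene was called where the adjusted p did not exceed 0.1 and its log2 fold change was 1 or more in size. The ± after a log2 fold change is the standard error of that fit. Since nothing in the labels says which libraries came from separate animals, these p-values measure only the spread between the averaged libraries, which may be technical.

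The 34 genes spanned a wide range of levels. *Fbxo2*, a subunit of a ubiquitin ligase abundant in the inner ear, reached 5419 and 5201 RPKM in the 9m IHC libraries, whereas *Gja1*, the connexin 43 gene, was listed at 0 in 3 of the 4 groups and at 0.00635 and 0.00693 RPKM in 26m IHC. *Gja1* and the receptor gene *Notch3* stayed under 0.1 RPKM in every group and were not tested. The other 32 were tested in every comparison, except that *Emid1* was left out of the comparison of 26m OHC with 9m OHC, where it was under 0.1 RPKM in both. By group mean, 31 members were above 0.1 RPKM in 26m OHC, 29 in 9m OHC, 32 in 26m IHC and 32 in 9m IHC. The 26m IHC libraries had the lowest levels of the set, with a median member at 4.44 RPKM, against 12.5 RPKM in 26m OHC, 14 RPKM in 9m OHC and 12.0 RPKM in 9m IHC. Of the 32 members tested, they held the lowest mean of 18 and the highest of 4. The 9m IHC libraries held the highest mean of 13. How many of all genes were lowest or highest in each group was not counted, so these counts describe the members only. Replicates lay close together, and the median coefficient of variation between averaged replicates, over members of at least 1 RPKM, was 2.29% in 26m OHC, 2.40% in 9m OHC, 1.82% in 26m IHC and 1.12% in 9m IHC.

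**Figure D1:**
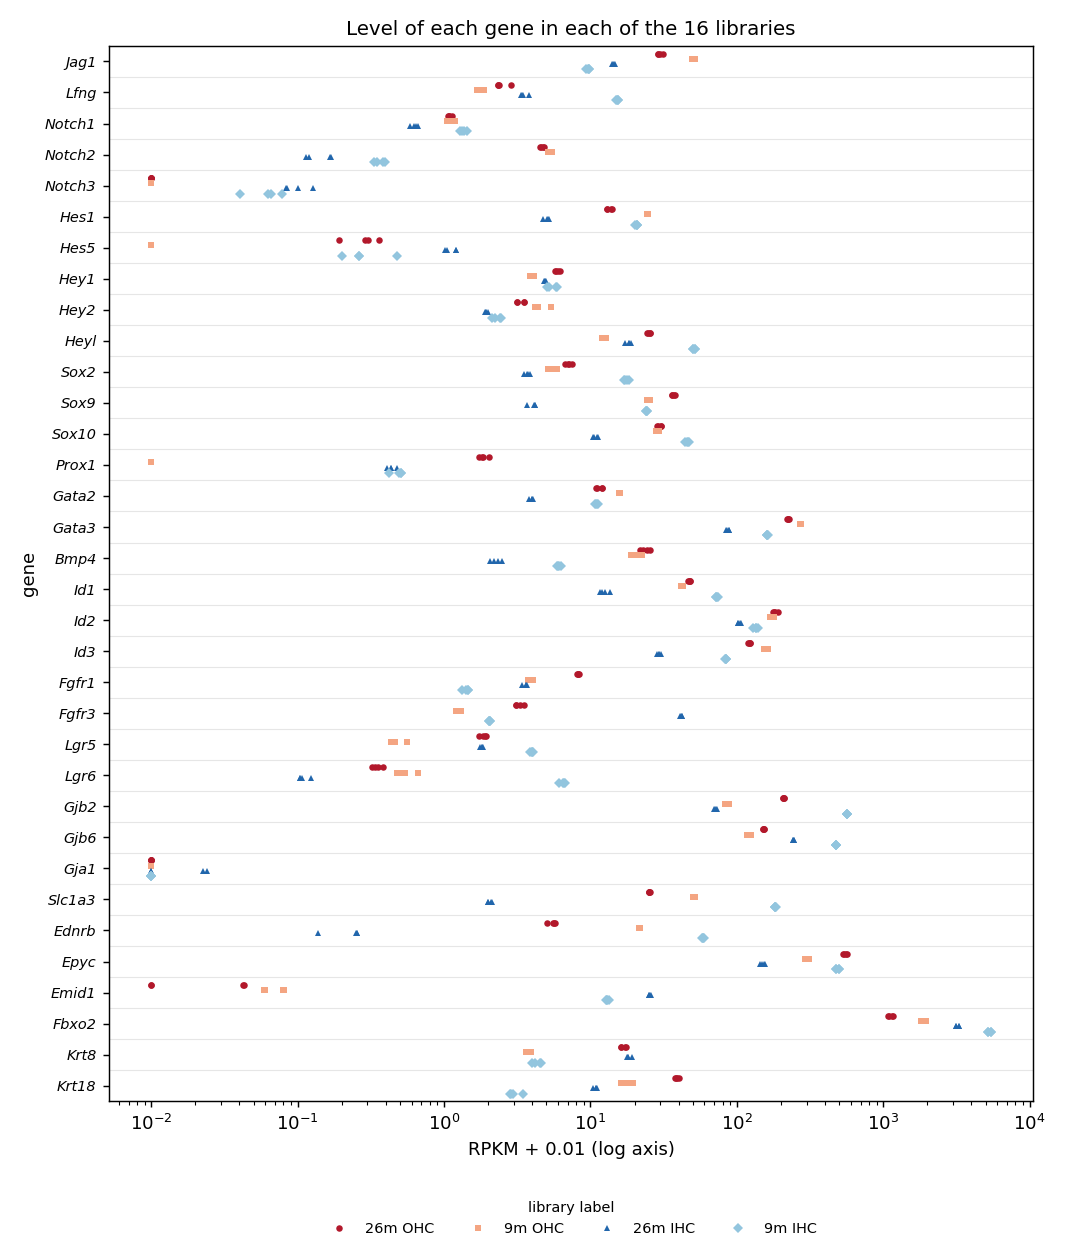
Level of each of the 34 genes in each of the 16 libraries, grouped by role (vertical axis) on a log axis of RPKM + 0.01, with 4 points per labelled group. The 4 libraries of a group mostly fall on top of each other, and the 26m IHC points lie to the left for 18 genes, the lowest group mean of each.

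In the comparison of 26m IHC with 9m IHC, 22 of the 32 members tested were called, 5 higher and 17 lower in 26m IHC. Over all 15711 genes tested, 32.7% were called, 14.1% higher and 18.6% lower, and the median log2 fold change was -1.05 for the members and -0.09 for all genes. The lower members included *Ednrb*, *Slc1a3*, *Lgr6*, *Gjb2*, *Sox9* and *Id1*, while *Fgfr3*, *Krt8*, *Krt18*, *Hes5* and *Fgfr1* were higher. The members thus stood at more than the background share on the lower side. *Notch1* and *Lgr5* lost the call under another scaling of the libraries, and with a pseudocount of 1 RPKM they, *Fgfr1* and *Hes5* lost it, which left 3 higher.

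In the comparison of 26m OHC with 9m OHC, 11 of the 31 members tested were called, 9 higher and 2 lower in 26m OHC. Over all 14843 genes tested, 49.6% were called, 35.6% higher and 14.0% lower. The members' share of calls, 35.5%, was thus below that of all genes, and their median log2 fold change was 0.17, against 0.45 for all genes. The 9 higher members were *Prox1*, *Krt8*, *Hes5*, *Lgr5*, *Fgfr3*, *Gjb2*, *Krt18*, *Fgfr1* and *Heyl*, and the lower members were *Ednrb* and *Slc1a3*. Scaling changed this count. With median ratio scaling, which brought the median of all genes to 0.11, 4 members were higher and 5 lower, and with quantile normalization, which brought it to -0.02, 5 were higher and 4 lower. With a pseudocount of 1 RPKM 4 were higher and 1 was lower, *Hes5* and *Slc1a3* being among the calls lost. *Prox1*, *Krt8* and *Hes5* stayed higher, and *Ednrb* and *Slc1a3* lower, under every scaling tried. Of all called genes 71.8% were higher as deposited, against 61% after median ratio scaling and 51.1% after quantile normalization.

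Between 9m OHC and 9m IHC, 18 of 32 members were called, 5 higher and 13 lower in 9m OHC. All 15335 genes tested gave 65.8%, with 17.3% higher and 48.5% lower, and the median log2 fold change was -0.67 for the members and -0.93 for all genes, so that the members moved no further down than the whole. *Notch2*, *Krt18*, *Jag1*, *Bmp4* and *Fgfr1* were higher. Median ratio scaling, which moved the median of all genes to -0.22, raised the higher members to 10. The share of higher genes among all calls was 43.7% under that scaling, 46.8% under quantile normalization and 26.3% as deposited. *Sox2*, *Fbxo2* and *Ednrb* lost the lower call under a scaling, and *Hes5* and *Prox1* lost it with a pseudocount of 1 RPKM.

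Between 26m OHC and 26m IHC, 22 of 32 members were called, 18 higher and 4 lower in 26m OHC. All 16043 genes tested gave 63.5%, with 29.0% higher and 34.4% lower, and the median log2 fold change was 1.16 for the members and -0.20 for all genes. The members on the higher side were thus above the background share, and the call of each of the 22 held under every scaling tried, while *Hes5*, *Lgr6* and *Prox1* lost theirs with a pseudocount of 1 RPKM. *Emid1*, *Fgfr3*, *Hes5* and *Fbxo2* were lower in 26m OHC. The comparisons share samples and are not independent: 12 members that were lower in 26m IHC than in 9m IHC were also lower there than in 26m OHC (*Bmp4*, *Ednrb*, *Epyc*, *Gata2*, *Gjb2*, *Hes1*, *Id1*, *Id3*, *Lgr6*, *Slc1a3*, *Sox10* and *Sox9*), and both statements rest on the same 26m IHC libraries. The share of all genes with both calls was not counted, so the 12 cannot be read as a trait of the set.

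Without the libraries labelled 26m IHC and 9m OHC, 26m OHC set against 9m IHC gave 7 members higher and 11 lower of 32. All 15884 genes tested gave 61.9%, with 26.3% higher and 35.6% lower, and the members' median log2 fold change was 0.01, against -0.33 for all genes. *Sox2*, *Heyl* and *Lgr5* lost their lower calls there under another scaling, and *Prox1* its higher call with a pseudocount of 1 RPKM. With values as deposited, *Hey1*, *Hey2* and *Id2* were called in none of the 5 comparisons nor in the test of whether the 2 labelled age differences were unlike. That test, an interaction of age and cell type, called 18 members with a higher and 3 with a lower difference in OHCs, of 32 tested, while all 17056 genes tested gave 56.5%, with 38.4% higher and 18.1% lower.

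**Figure D2:**
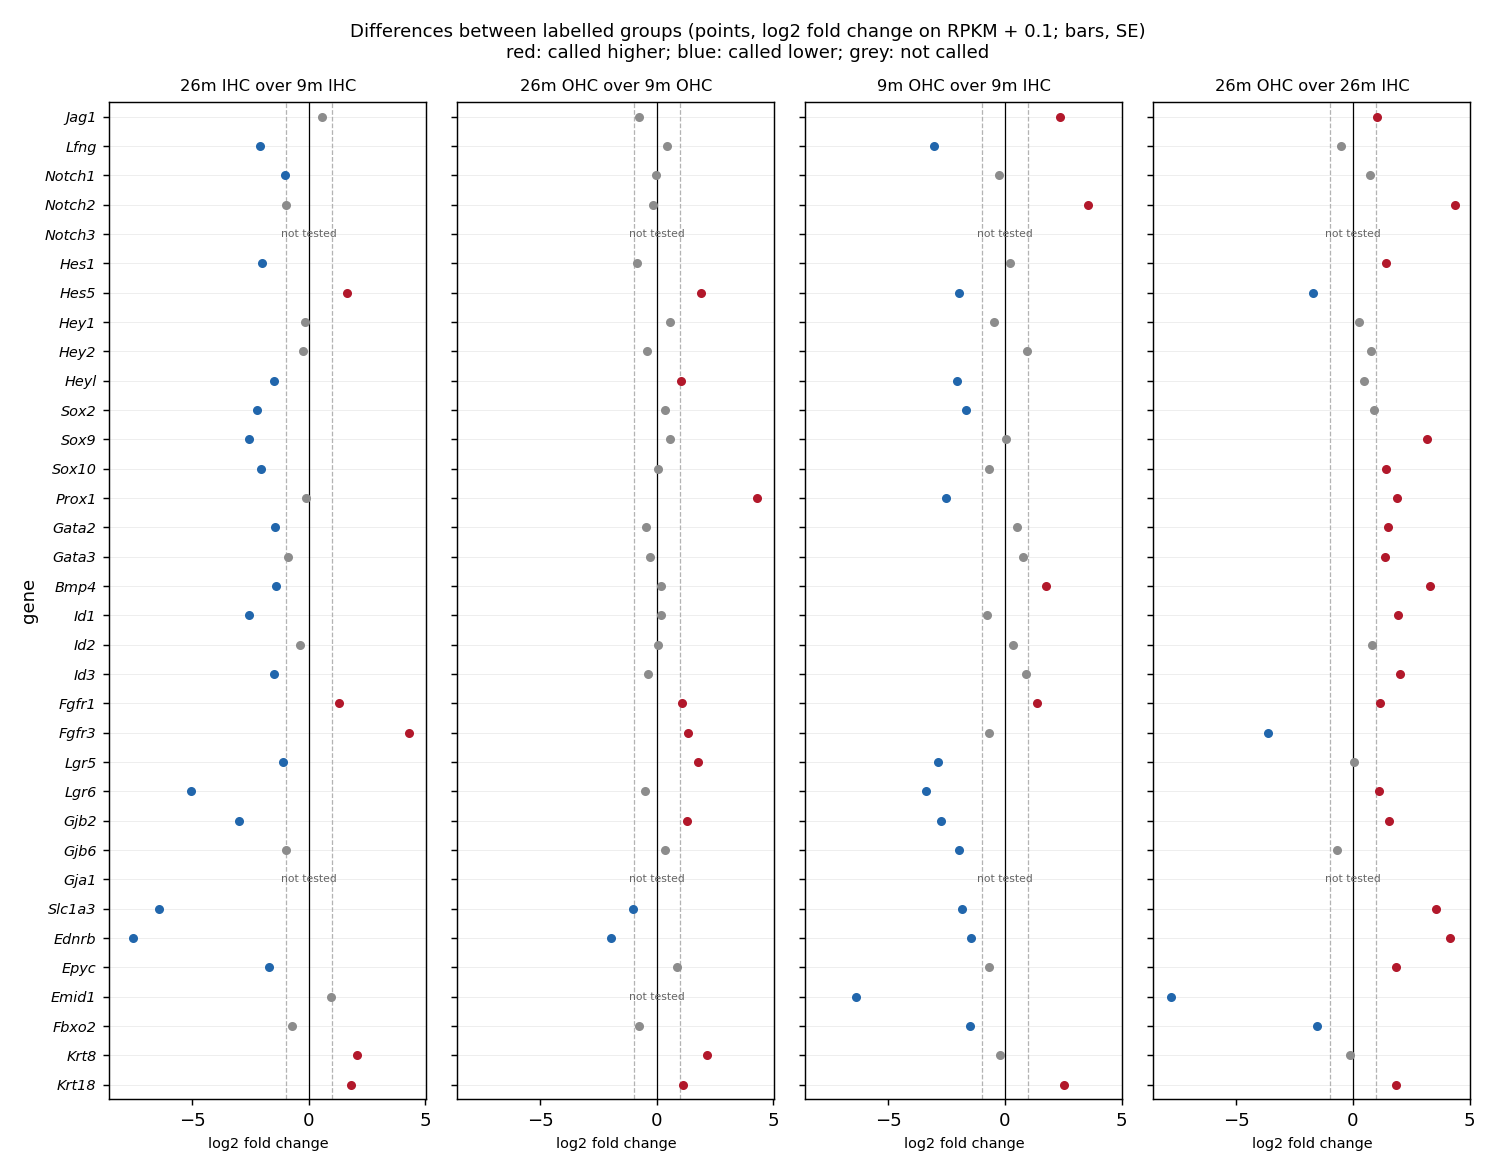
Log2 fold change of each member on log2(RPKM + 0.1) in 4 panels (26m IHC over 9m IHC, 26m OHC over 9m OHC, 9m OHC over 9m IHC, 26m OHC over 26m IHC), with SE bars mostly within the points, dashed lines at -1 and 1, red for called higher, blue for called lower and grey for not called. Most members lie left of 0 in the first panel (17 called lower) and right of 0 in the last (18 called higher), and both panels share the 26m IHC libraries.

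The Notch ligand gene *Jag1* was higher in the libraries labelled OHC at both ages. *Jag1* encodes a membrane ligand made by supporting cells, and it measured 28.8 and 30.6 RPKM in 26m OHC, 49.3 and 50.9 in 9m OHC, 14.3 and 14.3 in 26m IHC and 9.69 and 9.54 in 9m IHC. The 4 groups did not overlap. It was called higher in 9m OHC than in 9m IHC (log2 fold change 2.37 ± 0.03, adjusted p = 5.53e-07) and higher in 26m OHC than in 26m IHC (log2 fold change 1.05 ± 0.04, adjusted p = 7.36e-06). Neither labelled age difference reached the threshold, at -0.75 ± 0.04 in OHC and 0.57 ± 0.03 in IHC on the log2 scale, but they differed from each other (log2 fold change -1.32 ± 0.05, adjusted p = 2.59e-07, as the OHC minus the IHC age difference). *Lfng*, whose product adds sugars to Notch and so changes which ligand it answers to, ran the other way at 9 months. Its levels were 2.6 and 2.34 RPKM in 26m OHC, 1.83 and 1.76 in 9m OHC, 3.63 and 3.39 in 26m IHC and 15.2 and 15.3 in 9m IHC. It stood apart in the 9m IHC libraries, being lower in 26m IHC (log2 fold change -2.09 ± 0.04, adjusted p = 1.14e-06) and lower in 9m OHC (log2 fold change -3.02 ± 0.04, adjusted p = 5.66e-07).

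*Notch2* showed the widest gap among the receptors. It measured 4.76 and 4.56 RPKM in 26m OHC, 5.21 and 5.26 in 9m OHC, 0.135 and 0.13 in 26m IHC and 0.356 and 0.356 in 9m IHC, so that both groups labelled OHC stood above both labelled IHC without overlap. The log2 fold change was 3.55 ± 0.05 for 9m OHC over 9m IHC (adjusted p = 6.59e-07) and 4.36 ± 0.07 for 26m OHC over 26m IHC (adjusted p = 6.14e-07), and also 3.38 ± 0.06 for 26m OHC over 9m IHC. Between the labelled ages it did not pass the threshold, with -0.17 ± 0.04 in OHC and -0.97 ± 0.10 in IHC. If the labels 26m IHC and 9m OHC stood for one another, 3.55 and 4.36 would be the differences between ages. Whether *Notch2* differs with age thus rests on the labels. The levels labelled IHC lie near the pseudocount, and the value of -0.97 ranged from -1.36 to -0.26 over the alternatives of processing. *Notch1*, the receptor that the developing organ of Corti depends on, was low in every group, at 1.08 and 1.09 RPKM in 26m OHC, 1.15 and 1.07 in 9m OHC, 0.623 and 0.615 in 26m IHC and 1.35 and 1.33 in 9m IHC. The 2 OHC groups overlapped, and 26m IHC was called lower than 9m IHC at the very threshold (log2 fold change -1.0 ± 0.07, adjusted p = 6.87e-05), a call lost without either the second replicate of 26m IHC or the first of 9m IHC. *Notch1* overlaps *Gm13568* and *0610009E02Rik* on the other strand, at 15.1 and 3.05 RPKM in 26m OHC, 10.4 and 3.07 RPKM in 9m OHC, 0.866 and 0.313 RPKM in 26m IHC, and 0.561 and 0.223 RPKM in 9m IHC. Whether reads were counted by strand is not stated in the sources used here, so their reads and those of *Notch1* cannot be told apart. *Notch3*, a receptor best known from vascular mural cells, was listed at 0 in both OHC groups, at 0.0952 and 0.083 RPKM in 26m IHC and at 0.060 and 0.043 RPKM in 9m IHC, all below background.

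**Figure D3:**
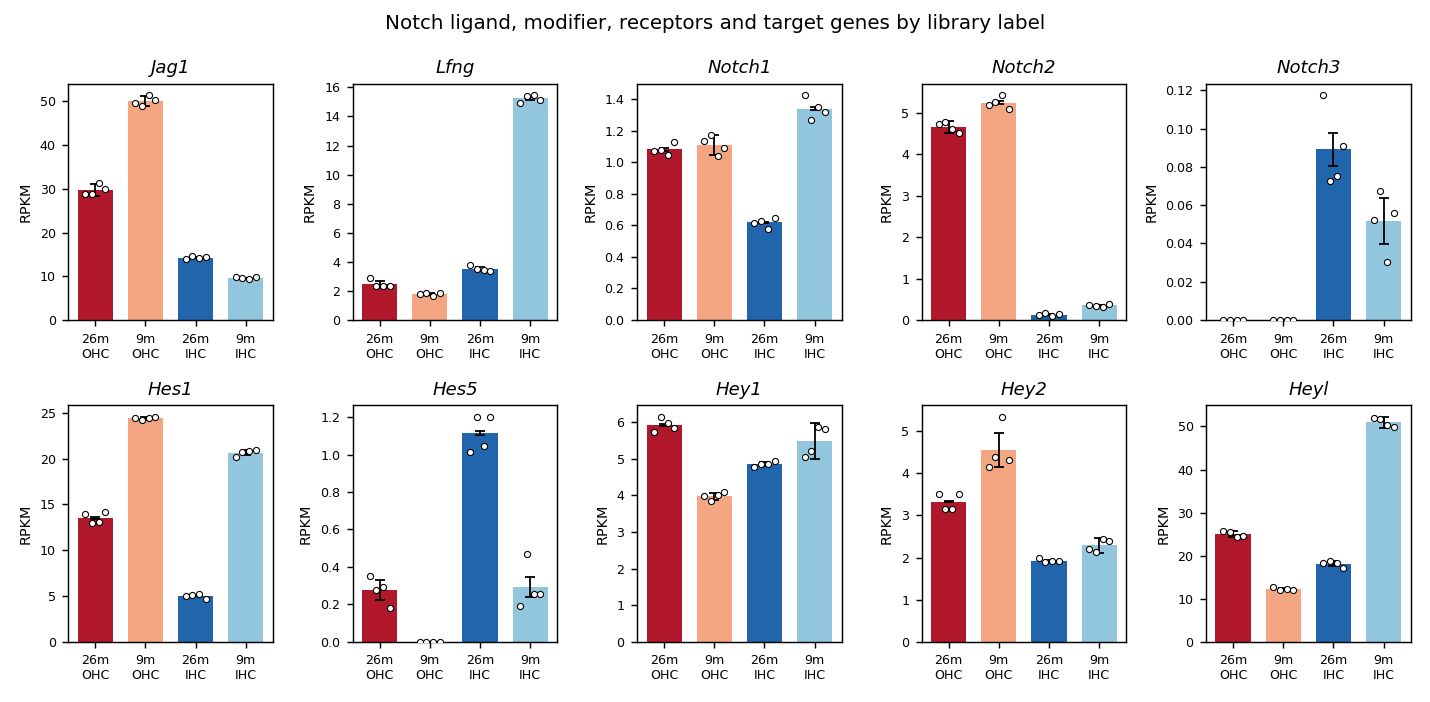
Levels of the 10 genes of the Notch set in RPKM, one panel a gene and each panel with its own axis from 0, with bars for the mean of the 2 averaged replicates, error bars for their SD and white points for the 4 libraries, in the order 26m OHC, 9m OHC, 26m IHC and 9m IHC. *Notch2* is high in both groups labelled OHC (4.56 to 5.26 RPKM), *Lfng* and *Heyl* are highest in 9m IHC, and *Hes5* is highest in 26m IHC.

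The *Hes* and *Hey* genes, repressors switched on by cut Notch, did not move as a group. *Hes1* measured 13.5 and 13.6 RPKM in 26m OHC, 24.3 and 24.5 in 9m OHC, 5.08 and 4.97 in 26m IHC and 20.4 and 20.9 in 9m IHC, and was lowest in 26m IHC. It was called lower in 26m IHC than in 9m IHC (log2 fold change -2.02 ± 0.03, adjusted p = 4.80e-07) and higher in 26m OHC than in 26m IHC (log2 fold change 1.41 ± 0.03, adjusted p = 1.84e-06). *Hes5*, the target most restricted to supporting cells during development, had its highest level in 26m IHC, at 0.314 and 0.238 RPKM in 26m OHC, 0 and 0 in 9m OHC, 1.11 and 1.12 in 26m IHC and 0.33 and 0.254 in 9m IHC. The 26m OHC and 9m IHC replicates overlapped. These are few reads, 31 over the 4 libraries of 26m OHC, 0 of 9m OHC, 148 of 26m IHC and 48 of 9m IHC. It was called higher in 26m IHC than in 9m IHC (log2 fold change 1.64 ± 0.12, adjusted p = 8.52e-05). Against a floor of 3 reads per library in 9m OHC, 0.112 RPKM, *Hes5* was at least 2.47-fold higher in 26m OHC, and in 9m IHC the level was at least 2.61-fold above the same floor. *Hes5* shares 20.8% of its 75-base windows with other transcripts, mostly the overlapping *Gm20421*, which was at most 0.0360 RPKM.

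*Heyl* was highest in 9m IHC, at 25.5 and 24.4 RPKM in 26m OHC, 12.4 and 12.1 in 9m OHC, 18.6 and 17.7 in 26m IHC and 51.9 and 50.1 in 9m IHC. It was lower in 26m IHC than in 9m IHC (log2 fold change -1.49 ± 0.04, adjusted p = 1.69e-06). It was higher in 26m OHC than in 9m OHC (log2 fold change 1.02 ± 0.03, adjusted p = 1.20e-05), a call that was lost without the first replicate of 26m OHC and under median ratio scaling. The 2 age differences differed from each other (log2 difference 2.51 ± 0.05, adjusted p = 2.09e-08). *Hey1* measured 5.94 and 5.9 RPKM in 26m OHC, 3.91 and 4.04 in 9m OHC, 4.82 and 4.89 in 26m IHC and 5.13 and 5.84 in 9m IHC. *Hey2*, which marks pillar cells, measured 3.33 and 3.33 RPKM in 26m OHC, 4.27 and 4.84 in 9m OHC, 1.94 and 1.92 in 26m IHC and 2.17 and 2.42 in 9m IHC. Neither was called in any comparison, and their largest log2 differences, both under 1 in size, were 0.56 for *Hey1* between 26m OHC and 9m OHC and 0.96 for *Hey2* between 9m OHC and 9m IHC. That of *Hey2* passed the threshold when RPKM was rescaled without mitochondrially encoded genes (log2 fold change 1.08). Over all alternatives it ranged from 0.75 to 1.72, so that it depends on the processing. Of the 5 target genes, 1 was higher and 2 were lower in 26m IHC than in 9m IHC (14.1% and 18.6% of all genes), and 2 were higher and none lower in 26m OHC than in 9m OHC (35.6% and 14.0% of all genes).

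The promoters of the set were read for TGGGAA, the core of the letters that RBPJ binds, on both strands (TTCCCA on the other). The windows come from RefSeq (GRCm38.p6) and run from 250 bases before a gene's start to 50 bases after it. Of 32851 promoters on record, 25.6% held the letters at least once and 3.79% held them at least 2 times. Of the 34 members 26 had 1 or more promoters there, 31 in all, of which 7 (22.6%) held the letters, each of a different member. *Hes5*, *Hey2* and *Lfng* held them 2 times each, and *Prox1*, *Emid1*, *Lgr6* and *Krt8* 1 time each. The other 8 of the 34 members had no promoter on record and were not read. Among them were the Notch targets *Hes1*, *Hey1* and *Heyl*, so nothing is known here of their promoters. The rest were *Id1*, *Fgfr1*, *Sox9*, *Sox10* and *Lgr5*. The 3 promoters with a pair of matches are shown, since 2 belong to Notch target genes and 1 to the Notch modifier, with the matches in capitals. The *Hes5* window lies at chr4:154960673-154960972 on the plus strand, that of *Hey2* at chr10:30842734-30843033 on the minus strand and that of *Lfng* at chr5:140607091-140607390 on the plus strand.
Hes5: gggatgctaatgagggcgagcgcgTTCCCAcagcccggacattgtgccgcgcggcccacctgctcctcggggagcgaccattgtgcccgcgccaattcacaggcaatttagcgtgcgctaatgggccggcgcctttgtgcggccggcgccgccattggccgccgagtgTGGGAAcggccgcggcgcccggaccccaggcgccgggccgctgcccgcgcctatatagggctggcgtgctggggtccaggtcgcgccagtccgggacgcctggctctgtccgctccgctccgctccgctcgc
Hey2: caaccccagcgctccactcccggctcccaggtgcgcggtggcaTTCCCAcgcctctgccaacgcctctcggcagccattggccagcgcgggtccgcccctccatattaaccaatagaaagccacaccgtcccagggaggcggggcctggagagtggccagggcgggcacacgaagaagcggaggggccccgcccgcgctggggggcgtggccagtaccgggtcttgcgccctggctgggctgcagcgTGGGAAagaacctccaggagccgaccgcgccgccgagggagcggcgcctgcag
Lfng: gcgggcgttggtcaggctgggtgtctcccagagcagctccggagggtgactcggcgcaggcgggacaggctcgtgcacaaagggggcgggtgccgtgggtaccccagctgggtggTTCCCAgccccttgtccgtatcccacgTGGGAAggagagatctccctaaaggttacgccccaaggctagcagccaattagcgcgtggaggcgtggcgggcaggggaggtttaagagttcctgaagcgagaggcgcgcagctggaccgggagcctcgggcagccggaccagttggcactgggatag
In *Hes5* the matches begin 226 bases before the start (TTCCCA) and 82 bases before it (TGGGAA), in *Hey2* 207 and 3 bases before it, and in *Lfng* 135 and 108 bases before it, each pair with TTCCCA first. A match is a description of letters, not a site in use. The 3 genes did not share a pattern of levels, with *Hes5* highest in 26m IHC, *Lfng* in 9m IHC and *Hey2* in 9m OHC. The share of G and C had a median of 66.3% over the members' 31 promoters, against 52.7% for all promoters.

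Other genes of the Notch pathway were read from lists made with earlier results of these data known, and the share of all genes called in the same direction is given beside each count. Of 8 other ligands and receptors, 2 were higher and 2 lower among 6 tested in 26m IHC over 9m IHC (14.1% and 18.6% of all genes), and 4 higher and 1 lower among 5 in 26m OHC over 9m OHC (35.6% and 14.0% of all genes). Between cell type labels there were 0 higher and 5 lower among 5 in 9m OHC over 9m IHC (17.3% and 48.5% of all genes), and 1 higher and 3 lower among 6 in 26m OHC over 26m IHC (29.0% and 34.4% of all genes). *Dner*, a Notch ligand of neurons and HCs, measured 22.5 and 22.4 RPKM in 26m OHC, 4.92 and 5.49 in 9m OHC, 186 and 183 in 26m IHC and 12.6 and 12.6 in 9m IHC. It was higher in 26m IHC than in 9m IHC (log2 fold change 3.86 ± 0.02, adjusted p = 7.80e-08) and in 26m OHC than in 9m OHC (log2 fold change 2.09 ± 0.06, adjusted p = 8.18e-06). *Jag2*, the ligand that HCs present to supporting cells, measured 1.15 and 1.09 RPKM in 26m OHC, 0.0353 and 0.0312 in 9m OHC, 6.63 and 6.62 in 26m IHC and 5.16 and 4.73 in 9m IHC. Unlike its relative *Jag1*, *Jag2* was lower in the groups labelled OHC, by a log2 fold change of -5.24 ± 0.07 in 9m OHC over 9m IHC (adjusted p = 6.50e-07). *Dll4* was at 2.19 and 2.13 RPKM in 26m IHC and at no more than 0.00660 RPKM in any replicate of the other groups. *Dlk2*, a membrane protein related to the Delta ligands, measured 0.168 and 0.213 RPKM in 26m OHC, 1.83 and 2.13 in 9m OHC, 0.121 and 0.0611 in 26m IHC and 5.1 and 4.82 in 9m IHC, and was lower in 26m IHC than in 9m IHC (log2 fold change -4.74 ± 0.16, adjusted p = 5.27e-06).

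The 17 genes for cutting, sugar addition and ligand uptake gave 11 lower and 1 higher of 16 tested in 9m OHC over 9m IHC (48.5% and 17.3% of all genes), and 9 lower and 1 higher of 16 in 26m OHC over 26m IHC (34.4% and 29.0% of all genes). Between ages the counts were 2 higher and 2 lower of 17 in 26m IHC over 9m IHC (14.1% and 18.6% of all genes) and 3 higher and 0 lower of 15 in 26m OHC over 9m OHC (35.6% and 14.0% of all genes). *Adam17*, a protease that can cut Notch, measured 1.16 and 1.25 RPKM in 26m OHC, 0.287 and 0.261 in 9m OHC, 4.14 and 3.97 in 26m IHC and 7.68 and 8.1 in 9m IHC. *Adam17* was lower in 9m OHC than in 9m IHC (log2 fold change -4.42 ± 0.06, adjusted p = 6.70e-07) and lower in 26m OHC than in 26m IHC (log2 fold change -1.67 ± 0.06, adjusted p = 6.79e-06). *Psenen*, a subunit of gamma-secretase, measured 102 and 102 RPKM in 26m OHC, 137 and 133 in 9m OHC, 74.2 and 72.6 in 26m IHC and 52 and 53.2 in 9m IHC. *Mfng*, a relative of *Lfng*, was found in 26m IHC alone, at 2.96 and 2.66 RPKM, and listed at 0 elsewhere. *Neurl1a*, a ubiquitin ligase that acts on Notch ligands, measured 1.24 and 1.14 RPKM in 26m OHC, 0 and 0 in 9m OHC, 6.85 and 6.84 in 26m IHC and 1.08 and 0.93 in 9m IHC. Of 24 genes of the nuclear complex and its regulators, 1 was higher and 2 were lower of 24 tested in 26m IHC over 9m IHC (14.1% and 18.6% of all genes), and 7 higher and 3 lower of 21 in 26m OHC over 9m OHC (35.6% and 14.0% of all genes). Between the OHC and IHC labels the counts were 4 higher and 13 lower of 23 in 9m OHC over 9m IHC (17.3% and 48.5% of all genes), and 5 higher and 7 lower of 24 in 26m OHC over 26m IHC (29.0% and 34.4% of all genes).

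In the nuclear list, *Ctbp1*, a corepressor, measured 5.78 and 5.64 RPKM in 26m OHC, 7.4 and 7.28 in 9m OHC, 54.1 and 52.6 in 26m IHC and 65.7 and 64 in 9m IHC. *Ctbp1* was lower in 9m OHC than in 9m IHC (log2 fold change -3.12 ± 0.03, adjusted p = 5.02e-07) and lower in 26m OHC than in 26m IHC (log2 fold change -3.20 ± 0.03, adjusted p = 3.28e-07). *Tle4*, a Groucho corepressor, measured 3.95 and 4.15 RPKM in 26m OHC, 2.18 and 2.18 in 9m OHC, 3.21 and 3.52 in 26m IHC and 11.7 and 11.8 in 9m IHC. *Fbxw7*, whose ubiquitin ligase marks the Notch fragment for breakdown, measured 19.5 and 19.3 RPKM in 26m OHC, 4.41 and 4.27 in 9m OHC, 0.855 and 0.832 in 26m IHC and 1.29 and 1.19 in 9m IHC, highest in 26m OHC. *Kat2a*, an acetyltransferase, was at 2.2 and 2.13 RPKM in 26m OHC and listed at 0 in 9m OHC. Of 6 further *Hes* family genes, 2 were higher and 2 lower of 5 tested in 26m IHC over 9m IHC (14.1% and 18.6% of all genes), and 3 higher and 0 lower of 3 in 26m OHC over 9m OHC (35.6% and 14.0% of all genes). For OHC over IHC labels they were 1 higher and 4 lower of 5 in 9m OHC over 9m IHC (17.3% and 48.5% of all genes), and 2 higher and 1 lower of 3 in 26m OHC over 26m IHC (29.0% and 34.4% of all genes). *Hes6*, an antagonist of *Hes1* found in HCs, measured 1.89 and 1.8 RPKM in 26m OHC, 0.0925 and 0.126 in 9m OHC, 19.8 and 19.9 in 26m IHC and 7.68 and 6.91 in 9m IHC. *Bhlhe41* measured 33 and 34.4 RPKM in 26m OHC, 13.8 and 14.8 in 9m OHC, 2.25 and 2.36 in 26m IHC and 0.753 and 0.761 in 9m IHC. *Bhlhe40* measured 7.21 and 7.32 RPKM in 26m OHC, 1.25 and 1.37 in 9m OHC, 1.92 and 1.8 in 26m IHC and 7.96 and 7.6 in 9m IHC. Both encode repressors tied to the circadian clock.

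Supporting cell transcription factors were lowest in the 26m IHC libraries, with the exception of *Prox1*. *Sox2*, the factor that sets up the sensory domain and stays on in supporting cells, measured 6.85 and 7.29 RPKM in 26m OHC, 5.18 and 5.86 in 9m OHC, 3.79 and 3.63 in 26m IHC and 17.7 and 17.4 in 9m IHC. The 9m IHC libraries stood above the rest without overlap, and *Sox2* was lower in 26m IHC (log2 fold change -2.21 ± 0.04, adjusted p = 5.88e-07). *Sox2* was also lower in 9m OHC than in 9m IHC (log2 fold change -1.65 ± 0.06, adjusted p = 9.47e-06), a call that another scaling ended. *Sox9*, a factor of supporting cells, measured 36.1 and 37.4 RPKM in 26m OHC, 24.9 and 25.4 in 9m OHC, 4.13 and 3.92 in 26m IHC and 24 and 24.2 in 9m IHC. It was far lower in 26m IHC than in the other groups, at -2.55 against 9m IHC and 3.16 for 26m OHC over 26m IHC on the log2 scale (adjusted p = 3.79e-07 and 4.84e-07). *Sox10*, shared by glia, supporting cells and the stria, measured 29.6 and 29.3 RPKM in 26m OHC, 29 and 28.4 in 9m OHC, 11.2 and 10.5 in 26m IHC and 46 and 45.5 in 9m IHC. The 26m IHC level was again the lowest (log2 fold change -2.07 ± 0.04, adjusted p = 7.40e-07 against 9m IHC).

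*Prox1*, a homeobox factor of pillar and Deiters cells, was highest in 26m OHC and had no read in 9m OHC. It measured 1.93 and 1.77 RPKM in 26m OHC, 0 and 0 in 9m OHC, 0.433 and 0.426 in 26m IHC and 0.491 and 0.456 in 9m IHC. Summed over 4 libraries these were 1277 reads in 26m OHC, 0 in 9m OHC, 351 in 26m IHC and 477 in 9m IHC. Against a floor of 3 reads per library in 9m OHC, 0.0182 RPKM, the 26m OHC level was at least 102-fold higher, and the 9m IHC level lay at least 26.0-fold above the same floor. The fitted log2 fold changes for 26m OHC over 9m OHC, 4.29 ± 0.07, and for 9m OHC over 9m IHC, -2.52 ± 0.08, depend on the pseudocount (adjusted p = 2.93e-06 and 4.40e-06). Between 26m IHC and 9m IHC the difference did not pass, at -0.11 ± 0.09. *Prox1os*, which overlaps it on the other strand, was at 0 RPKM in both OHC groups, 0.892 RPKM in 26m IHC and 0.0613 RPKM in 9m IHC.

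*Gata3*, needed for the prosensory domain and kept in HCs and supporting cells, measured 225 and 221 RPKM in 26m OHC, 272 and 272 in 9m OHC, 88.8 and 85.2 in 26m IHC and 162 and 160.1 in 9m IHC. *Gata2* measured 12 and 11.1 RPKM in 26m OHC, 15.7 and 15.7 in 9m OHC, 4.0 and 3.9 in 26m IHC and 10.8 and 11.1 in 9m IHC. Both were lowest in 26m IHC and called higher in 26m OHC than in 26m IHC, *Gata3* (log2 fold change 1.36 ± 0.03, adjusted p = 1.49e-06) and *Gata2* (log2 fold change 1.52 ± 0.05, adjusted p = 6.24e-06). *Gata2* was also lower in 26m IHC than in 9m IHC (log2 fold change -1.45 ± 0.04, adjusted p = 2.03e-06), while *Gata3* stayed within the threshold there (-0.89 ± 0.03). *Gata3* shares its strand with the overlapping gene *9230102O04Rik*, at 34.5 RPKM in 26m OHC, 41.7 in 9m OHC, 11.6 in 26m IHC and 14.2 in 9m IHC, and how reads were split between them was not tested.

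*Bmp4*, a ligand of Hensen and Claudius cells that patterns the cochlear floor, was higher in the groups labelled OHC. It measured 24.8 and 22.2 RPKM in 26m OHC, 22.3 and 19.5 in 9m OHC, 2.39 and 2.12 in 26m IHC and 6.11 and 5.99 in 9m IHC. The 26m OHC and 9m OHC replicates overlapped each other and no other group did. It was higher in 9m OHC than in 9m IHC (log2 fold change 1.77 ± 0.07, adjusted p = 9.73e-06) and higher in 26m OHC than in 26m IHC (log2 fold change 3.32 ± 0.08, adjusted p = 2.18e-06). It was lower in 26m IHC than in 9m IHC (log2 fold change -1.39 ± 0.07, adjusted p = 1.81e-05). The Id genes, targets of BMP whose products block basic helix-loop-helix factors, split. *Id1* measured 47.5 and 47.2 RPKM in 26m OHC, 42.3 and 42.4 in 9m OHC, 12.5 and 12.2 in 26m IHC and 72.5 and 73 in 9m IHC. *Id3* measured 123 and 119.6 RPKM in 26m OHC, 160 and 155 in 9m OHC, 29.8 and 29 in 26m IHC and 83.4 and 84 in 9m IHC. Both were lowest in 26m IHC, at -2.55 ± 0.03 for *Id1* and -1.51 ± 0.03 for *Id3* against 9m IHC on the log2 scale (adjusted p = 1.66e-07 and 5.89e-07). *Id2*, the most abundant of them, was called in no comparison, at 178 and 186 RPKM in 26m OHC, 171 and 178 in 9m OHC, 101 and 106 in 26m IHC and 132 and 138 in 9m IHC. Its log2 fold change in 9m OHC over 9m IHC ranged from 0.16 to 1.08 over the alternatives of processing.

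Of 19 other BMP genes, 1 was higher and 5 lower of 16 tested in 26m IHC over 9m IHC (14.1% and 18.6% of all genes), and 8 higher and 1 lower of 17 in 26m OHC over 9m OHC (35.6% and 14.0% of all genes). Between cell type labels there were 2 higher and 10 lower of 15 in 9m OHC over 9m IHC (17.3% and 48.5% of all genes), and 6 higher and 5 lower of 17 in 26m OHC over 26m IHC (29.0% and 34.4% of all genes). *Id4*, another Id gene, measured 25 and 27 RPKM in 26m OHC, 22.6 and 22.5 in 9m OHC, 147 and 156 in 26m IHC and 124 and 126 in 9m IHC. Unlike *Id1* and *Id3* it was lower in the groups labelled OHC at both ages, by log2 fold changes of -2.47 ± 0.02 in 9m OHC over 9m IHC and -2.54 ± 0.05 in 26m OHC over 26m IHC. *Bmpr1b*, a BMP receptor, measured 1.99 and 1.73 RPKM in 26m OHC, 1.78 and 1.94 in 9m OHC, 7.85 and 7.84 in 26m IHC and 14.1 and 14.2 in 9m IHC. *Smad9*, which carries the BMP signal, measured 2.02 and 2.21 RPKM in 26m OHC, 0.373 and 0.315 in 9m OHC, 0 and 0 in 26m IHC and 0.0271 and 0.0354 in 9m IHC. *Bmp5*, a ligand, measured 1.07 and 1.14 RPKM in 26m OHC, 0 and 0 in 9m OHC, 0.156 and 0.161 in 26m IHC and 0.036 and 0.0559 in 9m IHC. Both were highest in 26m OHC. *Fst*, an inhibitor of BMP and activin, measured 0.608 and 0.706 RPKM in 26m OHC and 0.486 and 0.664 RPKM in 26m IHC, and was listed at 0 in 9m OHC and 9m IHC.

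*Fgfr3*, the receptor that marks pillar and Deiters cells, had its highest level in the libraries labelled 26m IHC. It measured 3.19 and 3.29 RPKM in 26m OHC, 1.2 and 1.28 in 9m OHC, 41.5 and 41.7 in 26m IHC and 2.04 and 2.03 in 9m IHC. The 26m IHC value stood far from the other 3 groups. *Fgfr3* was higher in 26m IHC than in 9m IHC (log2 fold change 4.29 ± 0.03, adjusted p = 8.34e-08) and lower in 26m OHC than in 26m IHC (log2 fold change -3.64 ± 0.03, adjusted p = 3.09e-07). It was also higher in 26m OHC than in 9m OHC (log2 fold change 1.31 ± 0.06, adjusted p = 2.63e-05), a call lost under a scaling. *Fgfr1*, needed for growth of the prosensory domain, measured 8.24 and 8.17 RPKM in 26m OHC, 3.93 and 3.76 in 9m OHC, 3.6 and 3.54 in 26m IHC and 1.42 and 1.38 in 9m IHC, with no overlap between groups. It was called higher in all 4 comparisons, with log2 fold changes of 1.29 ± 0.05 in 26m IHC over 9m IHC, 1.07 ± 0.04 in 26m OHC over 9m OHC, 1.39 ± 0.05 in 9m OHC over 9m IHC and 1.18 ± 0.04 in 26m OHC over 26m IHC. The age call in OHC did not hold under another scaling.

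Of 18 other FGF genes, 3 were higher and 3 lower of 15 tested in 26m IHC over 9m IHC (14.1% and 18.6% of all genes), and 10 higher and 0 lower of 14 in 26m OHC over 9m OHC (35.6% and 14.0% of all genes). Between the OHC and IHC labels the counts were 3 higher and 9 lower of 14 in 9m OHC over 9m IHC (17.3% and 48.5% of all genes), and 7 higher and 5 lower of 15 in 26m OHC over 26m IHC (29.0% and 34.4% of all genes). *Spry2*, an FGF-induced inhibitor of the same pathway, followed the OHC label and measured 69.6 and 74 RPKM in 26m OHC, 95 and 101 in 9m OHC, 1.46 and 1.32 in 26m IHC and 1.08 and 1.31 in 9m IHC. Its log2 fold change was 6.25 ± 0.09 in 9m OHC over 9m IHC (adjusted p = 7.14e-07) and 5.59 ± 0.06 in 26m OHC over 26m IHC (adjusted p = 3.74e-07). *Fgf10*, a ligand of the inner ear, measured 13.6 and 13.6 RPKM in 26m OHC, 3.5 and 3.4 in 9m OHC, 0.171 and 0.211 in 26m IHC and 13.8 and 14.1 in 9m IHC. It was lower in 26m IHC than in 9m IHC (log2 fold change -5.60 ± 0.08, adjusted p = 3.95e-07). *Spry4* was at 1.92 and 2.0 RPKM in 26m OHC, 0 in 9m OHC, 0.0556 and 0.0564 RPKM in 26m IHC and 0 in 9m IHC.

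The R-spondin receptors *Lgr5* and *Lgr6*, which amplify Wnt signals and mark supporting cells able to divide in the newborn cochlea, were both highest in 9m IHC. *Lgr5* measured 1.82 and 1.87 RPKM in 26m OHC, 0.437 and 0.497 in 9m OHC, 1.79 and 1.82 in 26m IHC and 4.0 and 3.98 in 9m IHC. *Lgr6* measured 0.357 and 0.321 RPKM in 26m OHC, 0.589 and 0.475 in 9m OHC, 0.106 and 0.0944 in 26m IHC and 6.39 and 6.51 in 9m IHC. *Lgr6* stood far above the other groups in 9m IHC, with a log2 fold change of -5.03 ± 0.07 in 26m IHC over 9m IHC (adjusted p = 3.55e-07) and -3.38 ± 0.10 in 9m OHC over 9m IHC (adjusted p = 3.55e-06). *Lgr5* was lower in 26m IHC than in 9m IHC (log2 fold change -1.10 ± 0.05, adjusted p = 1.14e-05) and higher in 26m OHC than in 9m OHC (log2 fold change 1.78 ± 0.08, adjusted p = 2.66e-05). Both calls were lost under a scaling. Without the 2 doubted labels, *Lgr6* was lower in 26m OHC than in 9m IHC, groups that differ in both age and cell type (log2 fold change -3.90 ± 0.06, adjusted p = 9.39e-07). *Lgr5* overlaps *A930009A15Rik* on the other strand, at 4.46 RPKM in 26m OHC, 14.3 in 9m OHC, 9.76 in 26m IHC and 11 in 9m IHC, above *Lgr5* itself in each group.

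The related receptor *Lgr4* followed the OHC label, at 42.8 and 46.1 RPKM in 26m OHC, 60.7 and 64.6 in 9m OHC, 7.69 and 8.04 in 26m IHC and 4.48 and 4.67 in 9m IHC. Its log2 fold changes were 3.75 ± 0.04 in 9m OHC over 9m IHC and 2.48 ± 0.05 in 26m OHC over 26m IHC. It was in the list of 14 Wnt and R-spondin genes, in which 1 was higher and 3 lower of 11 tested in 26m IHC over 9m IHC (14.1% and 18.6% of all genes), and 3 higher and 1 lower of 11 in 26m OHC over 9m OHC (35.6% and 14.0% of all genes). For OHC over IHC labels they were 5 higher and 0 lower of 10 in 9m OHC over 9m IHC (17.3% and 48.5% of all genes), and 10 higher and 1 lower of 12 in 26m OHC over 26m IHC (29.0% and 34.4% of all genes). *Axin2*, a target and brake of Wnt signalling, measured 3.2 and 2.97 RPKM in 26m OHC, 1.54 and 1.66 in 9m OHC, 0.0499 and 0.106 in 26m IHC and 0.178 and 0.145 in 9m IHC. *Rnf43*, which removes Wnt receptors, measured 4.36 and 4.5 RPKM in 26m OHC, 2.95 and 2.93 in 9m OHC, 1.28 and 1.24 in 26m IHC and 5.84 and 5.99 in 9m IHC. *Lef1*, a nuclear partner of beta-catenin, measured 0.50 and 0.577 RPKM in 26m OHC, 0 and 0 in 9m OHC, 0.067 and 0.076 in 26m IHC and 0.104 and 0.0926 in 9m IHC, highest in 26m OHC.

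*Gjb2* and *Gjb6* encode connexins 26 and 30, which join supporting cells into a network that carries potassium away from HCs. They neighbour each other on chromosome 14 (GRCm38, 57098600 to 57104702 and 57123303 to 57133611), with 18600 bases between them. *Gjb2* measured 207 and 210.1 RPKM in 26m OHC, 83.5 and 86.5 in 9m OHC, 72.1 and 70.7 in 26m IHC and 565 and 564 in 9m IHC. *Gjb6* measured 152 and 152 RPKM in 26m OHC, 120.1 and 121 in 9m OHC, 243 and 244 in 26m IHC and 477 and 476 in 9m IHC. Both were highest in 9m IHC without overlap, and *Gjb2* varied more than its neighbour. *Gjb2* was lower in 26m IHC than in 9m IHC (log2 fold change -2.98 ± 0.02, adjusted p = 8.67e-08), while *Gjb6* missed the threshold there (-0.97 ± 0.02). Both were lower in 9m OHC than in 9m IHC, by log2 fold changes of -2.73 ± 0.03 for *Gjb2* and -1.98 ± 0.02 for *Gjb6* (adjusted p = 5.02e-07 and 5.02e-07). Both were also lower in 26m OHC than in 9m IHC, at -1.43 ± 0.02 and -1.65 ± 0.02. *Gja1* was listed at 0 in every group but 26m IHC, where its mean of 0.00664 RPKM was far below background. Of 10 other connexin genes 3 or fewer could be tested in each comparison. *Gjd2*, a connexin of neurons, was at 1.76 and 1.86 RPKM in 26m OHC and 0 in 9m OHC.

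*Slc1a3* and *Ednrb* had the largest differences of the set in 26m IHC over 9m IHC. *Slc1a3* encodes the glutamate transporter GLAST of inner phalangeal and border cells, the supporting cells around IHCs, and measured 25.2 and 25.2 RPKM in 26m OHC, 50.2 and 51 in 9m OHC, 2.1 and 1.99 in 26m IHC and 182 and 184 in 9m IHC. *Ednrb*, an endothelin receptor of glia and melanocytes, measured 5.37 and 5.57 RPKM in 26m OHC, 21.4 and 21.7 in 9m OHC, 0.243 and 0.187 in 26m IHC and 58.4 and 59.3 in 9m IHC. For both the order was 9m IHC, 9m OHC, 26m OHC and 26m IHC from high to low, with no overlap between neighbours. In 26m IHC over 9m IHC the log2 fold change was -6.42 ± 0.03 for *Slc1a3* (adjusted p = 7.80e-08) and -7.55 ± 0.09 for *Ednrb* (adjusted p = 2.40e-07). They were also the 2 members lower in 26m OHC than in 9m OHC, *Slc1a3* at -1.0 ± 0.02, lost without the second replicate of 9m OHC, and *Ednrb* at -1.96 ± 0.03. In 26m OHC over 9m IHC, without the doubted labels but across both age and cell type, they were at -2.86 ± 0.02 and -3.40 ± 0.03 (adjusted p = 4.64e-07 and 4.64e-07).

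*Epyc*, a small matrix proteoglycan of supporting cells, was among the most abundant members, at 534 and 561 RPKM in 26m OHC, 295 and 308 in 9m OHC, 146 and 155 in 26m IHC and 479 and 499.9 in 9m IHC. It was lower in 26m IHC than in 9m IHC (log2 fold change -1.70 ± 0.04, adjusted p = 1.45e-06) and higher in 26m OHC than in 26m IHC (log2 fold change 1.86 ± 0.04, adjusted p = 1.51e-06). *Epyc* shares 39.4% of its windows with *Gm10754* on the other strand, which was listed at 0 RPKM. *Emid1*, a secreted protein with an EMI domain, split by cell type label. It measured 0.0329 and 0 RPKM in 26m OHC, 0.0495 and 0.0699 in 9m OHC, 25.6 and 25.3 in 26m IHC and 13.1 and 13 in 9m IHC. These were 4 reads over the 4 libraries of 26m OHC, 14 of 9m OHC, 7168 of 26m IHC and 4523 of 9m IHC. Scaled by mapped reads, the 26m IHC level was 1512 times that of 26m OHC (exact 95% interval 590.1 to 5549) and the 9m IHC level 219.7 times that of 9m OHC (131 to 402), intervals that cover counting error only. The labelled age difference in IHC did not pass (0.96 ± 0.03).

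*Fbxo2*, the most abundant member, measured 1159 and 1084 RPKM in 26m OHC, 1950 and 1834 in 9m OHC, 3303 and 3135 in 26m IHC and 5419 and 5201 in 9m IHC. It was lower in the groups labelled OHC, with log2 fold changes of -1.49 ± 0.04 in 9m OHC over 9m IHC and -1.52 ± 0.05 in 26m OHC over 26m IHC (adjusted p = 2.92e-06 and 3.86e-06). Its labelled age differences, -0.72 ± 0.04 in IHC and -0.75 ± 0.05 in OHC, were below the threshold, and the test of their difference gave -0.03 ± 0.07 (adjusted p = 0.668).

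*Krt8* and *Krt18*, the keratin pair of simple epithelia and of pillar and Deiters cells, were higher at 26 months under both labels. They neighbour each other on chromosome 15 (GRCm38, 101996711 to 102004342 and 102028216 to 102032026), with 23873 bases between them. *Krt8* measured 16.7 and 16.8 RPKM in 26m OHC, 3.65 and 3.82 in 9m OHC, 18.6 and 17.9 in 26m IHC and 4.36 and 4.23 in 9m IHC. *Krt18* measured 39.5 and 38.1 RPKM in 26m OHC, 18.2 and 17.8 in 9m OHC, 10.7 and 10.9 in 26m IHC and 2.87 and 3.14 in 9m IHC. For *Krt8* both 26m groups stood above both 9m groups, and the log2 fold change was 2.06 ± 0.04 in IHC and 2.13 ± 0.04 in OHC (adjusted p = 7.84e-07 and 2.85e-06). *Krt18* was higher with age too, at 1.81 ± 0.05 in IHC and 1.10 ± 0.03 in OHC (adjusted p = 3.21e-06 and 7.83e-06), the OHC call being lost under a scaling. Unlike *Krt8*, *Krt18* was also higher in the groups labelled OHC, with 2.54 ± 0.05 in 9m OHC over 9m IHC and 1.83 ± 0.03 in 26m OHC over 26m IHC. If the doubted labels stood for one another, these would be the comparisons between ages, and *Krt8* was called in neither. The age difference of *Krt8* thus rests on the labels. Without the doubted labels, 26m OHC stood above 9m IHC by 1.94 ± 0.03 for *Krt8* and 3.65 ± 0.05 for *Krt18* on the log2 scale. Those groups differ in both age and cell type, so this gives neither difference alone. *Krt8* shares 23.7% of its windows with *Krt8-ps* and *Gm36026*, copies between which reads may have been split. *Krt19*, another keratin, measured 30.8 and 29.7 RPKM in 26m OHC, 26.6 and 27.1 in 9m OHC, 3.43 and 3.39 in 26m IHC and 11.3 and 10.9 in 9m IHC. *Vim*, the vimentin gene of supporting cells, measured 26.3 and 25.8 RPKM in 26m OHC, 14.7 and 13.6 in 9m OHC, 34.3 and 33.8 in 26m IHC and 13.9 and 13.5 in 9m IHC.

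**Figure D4:**
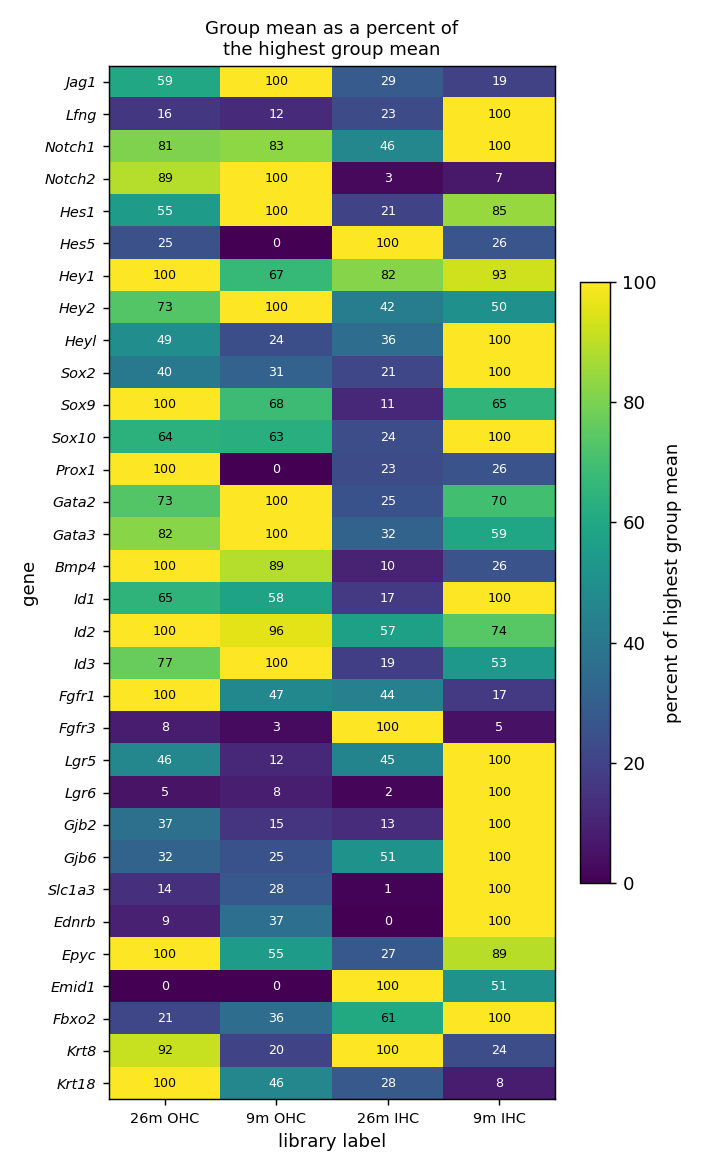
Mean RPKM of each of 32 members in each labelled group as a percent of the gene's highest group mean (color scale 0 to 100), columns in the order 26m OHC, 9m OHC, 26m IHC and 9m IHC. The 9m IHC column holds the highest mean of 13 members and the 26m IHC column the lowest of 18, while *Fgfr3*, *Hes5* and *Emid1* are highest in 26m IHC.

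A list of 18 further genes reported in cochlear supporting cells gave 5 higher and 7 lower of 16 tested in 26m IHC over 9m IHC (14.1% and 18.6% of all genes), and 8 higher and 3 lower of 16 in 26m OHC over 9m OHC (35.6% and 14.0% of all genes). Between cell type labels there were 4 higher and 8 lower of 16 in 9m OHC over 9m IHC (17.3% and 48.5% of all genes), and 9 higher and 6 lower of 17 in 26m OHC over 26m IHC (29.0% and 34.4% of all genes). *Cd44*, a surface marker of outer pillar cells, measured 12.4 and 12.9 RPKM in 26m OHC, 4.0 and 3.96 in 9m OHC, 0.648 and 0.677 in 26m IHC and 10.9 and 11.3 in 9m IHC. Like *Sox9* it was lowest in 26m IHC (log2 fold change -3.87 ± 0.05, adjusted p = 3.16e-07 against 9m IHC). *Ngfr*, the p75 receptor of pillar cells, was at 8.56 and 7.66 RPKM in 26m OHC and at most 0.0419 RPKM elsewhere. *Tectb*, which encodes a protein of the tectorial membrane, measured 0.118 and 0.0981 RPKM in 26m OHC, 0.906 and 1.06 in 9m OHC, 77 and 76.4 in 26m IHC and 6.63 and 6.58 in 9m IHC. It was lower in 26m OHC than in 26m IHC (log2 fold change -8.53 ± 0.06, adjusted p = 2.83e-07). *Fabp7*, a lipid carrier of glia, was at 3.39 and 3.48 RPKM in 26m IHC and 2.22 and 2.38 RPKM in 9m IHC. *S100a1*, a calcium-binding protein shared by HCs and supporting cells, measured 5807 and 5695 RPKM in 26m OHC, 11421 and 11208 in 9m OHC, 3809 and 3838 in 26m IHC and 4565 and 4610 in 9m IHC.

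Markers of other cells differed between the groups alongside the members, and their part in the results was not tested. The 11 HC markers were above 0.1 RPKM in every group, with sums of 2356 and 2322 RPKM in 26m OHC, 2225 and 2190 in 9m OHC, 2535 and 2488 in 26m IHC and 4139 and 4138 in 9m IHC. Most of the sum was *Calb2*, the calretinin gene, except in 26m IHC. Without it the other 10 summed to 327 and 322 RPKM in 26m OHC, 605 and 593 in 9m OHC, 2281 and 2238 in 26m IHC and 999.9 and 976 in 9m IHC. Of the 11, 9 were lower and 1 higher in 26m OHC than in 26m IHC (34.4% and 29.0% of all genes). Sums of the 8 OHC markers were 1229 and 1237 RPKM in 26m OHC, 126 and 122 in 9m OHC, 15310 and 15481 in 26m IHC and 83 and 84.7 in 9m IHC. The OHC sum was highest in 26m IHC. Without *Ocm*, the most abundant of them, the other 7 summed to 82.1 and 81.7 RPKM in 26m OHC, 27.7 and 26.6 in 9m OHC, 2491 and 2465 in 26m IHC and 51.3 and 50.6 in 9m IHC. The sum was then still highest in 26m IHC, but 9m OHC lay below 9m IHC. Sums of the 6 IHC markers were 134 and 132 RPKM in 26m OHC, 255 and 257 in 9m OHC, 26.8 and 26.3 in 26m IHC and 547 and 532 in 9m IHC. The 12 macrophage markers summed to 1047 and 1028 RPKM in 26m OHC, 0.322 and 0.196 in 9m OHC, 52 and 53.9 in 26m IHC and 3.1 and 3.09 in 9m IHC. Of these 11 were above 0.1 RPKM in 26m OHC, 1 in 9m OHC, 11 in 26m IHC and 5 in 9m IHC. *Cd68*, *Tyrobp*, *Csf1r* and *C1qa* were among the 8 listed at 0 in 9m OHC. The 10 neuron markers summed to 942 and 925 RPKM in 26m OHC, 126 and 125 in 9m OHC, 33.3 and 32.9 in 26m IHC and 222 and 218 in 9m IHC. The 6 red blood cell markers summed to 18.6 and 17.9 RPKM in 26m OHC, 13.9 and 12.7 in 9m OHC, 6148 and 5941 in 26m IHC and 406 and 401 in 9m IHC. Of these 3 were above 0.1 RPKM in 26m OHC, 3 in 9m OHC, 6 in 26m IHC and 6 in 9m IHC. The 5 eosinophil markers summed to 409 and 395 RPKM in 26m IHC, and *Epx*, *Ear1*, *Ear2* and *Ear6* were listed at 0 in the other groups. The 10 stria and melanocyte markers summed to 14.1 and 13.8 RPKM in 26m OHC, 6.97 and 7.17 in 9m OHC, 449 and 456 in 26m IHC and 4.69 and 4.41 in 9m IHC. In 26m IHC almost all of it came from *Kcnj13*, and without that gene the other 9 summed to 8.22 and 7.91 RPKM in 26m OHC, 4.47 and 4.43 in 9m OHC, 2.52 and 2.7 in 26m IHC and 2.53 and 2.39 in 9m IHC. *Tyrp1* was listed at 0 in every group. The 9 fibroblast markers summed to 489 and 503 RPKM in 26m OHC, 124 and 132 in 9m OHC, 161 and 164 in 26m IHC and 173 and 179.7 in 9m IHC. Without *Coch* the other 8 summed to 185 and 190 RPKM in 26m OHC, 101 and 108 in 9m OHC, 102 and 105 in 26m IHC and 152 and 159 in 9m IHC. The 10 endothelial markers summed to 29.7 and 30.1 RPKM in 26m OHC, 4.11 and 3.59 in 9m OHC, 17.5 and 16.9 in 26m IHC and 11.2 and 11.3 in 9m IHC. Without *Egfl7*, almost all of the sum in 26m IHC, the other 9 summed to 26.5 and 26.7 RPKM in 26m OHC, 1.27 and 1.35 in 9m OHC, 0.749 and 0.76 in 26m IHC and 3.39 and 3.33 in 9m IHC. The 8 pericyte markers summed to 2.67 and 2.9 RPKM in 26m OHC, 2.03 and 2.06 in 9m OHC, 0.587 and 0.799 in 26m IHC and 0.349 and 0.203 in 9m IHC. Of the glial lists, the 10 Schwann cell markers summed to 44.1 and 44.7 RPKM in 26m OHC, 31.8 and 31.7 in 9m OHC, 77.1 and 76.5 in 26m IHC and 76.7 and 76.4 in 9m IHC. Most of each sum was *Mal*. Without it the other 9 summed to 14.7 and 14.7 RPKM in 26m OHC, 9.15 and 9.43 in 9m OHC, 18.9 and 17.8 in 26m IHC and 15.7 and 16.1 in 9m IHC. *Slc1a3* and *Ednrb* are also expressed by glia, and the part of glia in their levels was not tested. The macrophage and neuron sums were highest in 26m OHC, and the red blood cell and eosinophil sums in 26m IHC. Whether the levels of the members go with these sums was not tested.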

How the data were processed

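RNA was measured in about 1000 hand-picked HCs per library, in 16 libraries of 4 labelled groups. The authors amplified cDNA with a low-input SMART kit, made Nextera libraries, sequenced paired reads, mapped them to GRCm38 (mm10, per the submitters' processing notes) with CLC Genomics Workbench and deposited RPKM per gene for 49585 genes. The version of the mapper, its counting rules and the strand setting are not given in the sources used here. Mapping to introns as well as exons, as described in the methods, could add reads of unspliced RNA to a gene's value.

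Mapped reads were recovered from the steps of low RPKM values and gene lengths (GENCODE M21), with whole reads within 0.001 in every library for 15700 of 20986 detected genes (74.8%) and for 22 of 34 members. Libraries held 19990435 to 21226800 (26m OHC), 19666190 to 21030345 (9m OHC), 23161311 to 25617032 (26m IHC) and 28826644 to 31243721 (9m IHC) mapped reads. Pairs of libraries that differed by sampling noise were averaged (n = 2 per group). The study describes 2 biological replicates with 2 technical repeats each, whereas the labels number 4 replicates per group and name no repeats.

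Each comparison was fitted with limma 3.58.1 in R 4.3.3 (lmFit, eBayes with trend) on log2(RPKM + 0.1) over genes whose mean reached 0.1 RPKM in 1 or both of its groups, with Benjamini-Hochberg adjustment over all of them. The procedure was tested on simulated data. Alternatives for the pseudocount, filter, scaling, threshold, replicates, block and fit were run. Floors are 3 reads per library, and intervals and floors cover counting error only. Promoters and motif matches were read in Python 3.11.15.

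All members are named. Of each pathway list the gene with the highest mean and, per comparison, the called gene with the largest difference are named, apart from some connexin genes that are not reported here. Other names are genes that overlap a member or mark another cell type. The members and lists were chosen with earlier results of these data known, so no p-value was computed over a list. The comparison of 26m OHC with 9m IHC was added after seeing the data.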

Additional observations from a re-analysis of the deposited data

Results flagged for a closer look

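For 21 members the difference between 26m and 9m libraries was not alike under the 2 cell type labels, by a limma test of the interaction of age and cell type (difference of log2 fold changes, OHC minus IHC, adjusted p not above 0.1 by Benjamini-Hochberg, size 1 or more), a result that 56.5% of all genes tested also gave. Each difference sets n = 2 averaged libraries of all 4 groups against each other, so all 21 rest on the same libraries. The labels 26m IHC and 9m OHC do not match their markers, but the difference keeps its value and sign if these 2 labels are exchanged.

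The endothelin receptor and the glutamate transporter differed most, with 5.59 for *Ednrb* and 5.41 for *Slc1a3* (adjusted p = 1.92e-08 and 1.56e-09), both being lower with age under the IHC label by far more than under the OHC label. Among receptors and connexins the differences were 4.51 for *Lgr6*, 2.89 for *Lgr5*, 4.28 for *Gjb2* and 1.31 for *Gjb6*. Among the transcription factors they were 4.40 for *Prox1*, 3.10 for *Sox9*, 2.57 for *Sox2*, 2.11 for *Sox10* and 1.0 for *Gata2*. *Prox1* had no read in 9m OHC, so that its value depends on the pseudocount. *Gata2* fell short of the threshold when 1 replicate of 26m OHC, 26m IHC or 9m IHC was left out.

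In the BMP branch the differences were 2.71 for *Id1*, 1.56 for *Bmp4* and 1.13 for *Id3*, and in the Notch set 2.53 for *Lfng*, 2.51 for *Heyl*, 1.17 for *Hes1* and -1.32 for *Jag1*. *Epyc* stood at 2.56. The members with a lower difference under the OHC label were *Fgfr3*, at -2.97, *Emid1*, at -1.43, and *Jag1*. *Emid1* had few reads in both OHC groups, and its value fell short of the threshold with a pseudocount of 1 RPKM (-0.97, against -2.70 with one of 0.01 RPKM). *Gjb6*, *Hes1*, *Gata2*, *Bmp4* and *Id3* fell short of the threshold under median ratio scaling.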

How the results depend on the processing

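Of 2953 values of single members under an alternative, 2823 kept direction and side of the threshold, 61 were no longer called, 31 became called and 38 changed sign. None of the 112 called values changed sign, 30 lost the call under at least 1 alternative, and 22 uncalled values gained one. Of 372 counts of calls 30 moved by more than 1.5 times. Few reads limit the values of low genes such as *Hes5* and *Notch3*, and causes of the moves were not tested unless stated.

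A pseudocount of 1 RPKM shrank the changes of low genes by its construction. All genes called higher and lower were then 892 and 1394 in 26m IHC over 9m IHC (3 members higher), 3141 and 1056 in 26m OHC over 9m OHC (4 members higher, 1 lower), 1606 and 4696 in 9m OHC over 9m IHC, 3041 and 3369 in 26m OHC over 26m IHC, 2597 and 3527 in 26m OHC over 9m IHC, and 4183 and 1578 in the interaction, where *Hes5* became -0.36. A filter at a mean of 1 RPKM left fewer genes to test, with 1214 higher and 1882 lower in 26m IHC over 9m IHC, 1384 lower in 26m OHC over 9m OHC and 2036 lower in the interaction.

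Median ratio scaling gave 4 members higher and 5 lower in 26m OHC over 9m OHC, where *Sox10* became -0.30, *Gjb6* -0.0030, *Bmp4* -0.17, *Id1* -0.18 and *Id2* -0.28. In 9m OHC over 9m IHC it gave 3984 genes and 10 members higher, with *Sox10* at 0.039, *Hey1* at 0.25, *Notch1* at 0.41, *Epyc* at 0.012 and *Krt8* at 0.50. *Hes5* became 0.10 in 26m OHC over 9m IHC, and 0.011 when RPKM was rescaled without mitochondrially encoded genes. In the interaction *Gata3* became -0.010, *Id2* -0.17 and *Krt8* -0.52. Quantile normalization gave 3510 genes higher and 3363 lower, and 5 members higher and 4 lower, in 26m OHC over 9m OHC, with *Sox2* at -0.092, *Sox10* at -0.11, *Lfng* at -0.23 and *Bmp4* at -0.0187. It gave 4014 genes higher and 4572 lower in 9m OHC over 9m IHC, with *Fgfr3* at 0.0043, *Hey1* at 0.37, *Notch1* at 0.39 and *Krt8* at 0.61. *Prox1* became 0.12 in 26m IHC over 9m IHC, *Lgr5* -0.30 and *Krt8* 0.26 in 26m OHC over 26m IHC, and *Epyc* -0.044 in 26m OHC over 9m IHC. In the interaction *Hes5* became -0.55, *Notch1* -0.27, *Fbxo2* 0.74 and *Krt8* -0.33.

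Leaving out 1 averaged replicate leaves a group with 1, which is assumed to vary like the other group. Members lower in 26m OHC than in 9m OHC then ranged from 1 to 2, the lowest without the second replicate of 9m OHC, when *Slc1a3* lost its call. *Notch1* there ranged from -0.087 to 0.019, *Hes5* in 26m OHC over 9m IHC from -0.21 to 0.085, and *Fbxo2* in the interaction from -0.080 to 0.016. In 26m OHC over 9m IHC *Heyl* lost its call without the second replicate of 26m OHC.

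The replicate numbers of the labels are not stated to pair samples, and of 24 correlations of same-numbered libraries' deviations, -0.03 to 0.13, 3 were over 0.1 and 14 were the highest for their number. With the averaged replicate as a block, members higher and lower were 5 and 17 in 26m IHC over 9m IHC, 9 and 2 in 26m OHC over 9m OHC, 5 and 13 in 9m OHC over 9m IHC, 18 and 4 in 26m OHC over 26m IHC, 7 and 11 in 26m OHC over 9m IHC, and 18 and 3 in the interaction, and no member's call changed.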
